A study of Mus musculus with 6 samples.

Results

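The collagen chain genes were read from RNAseq of cells sorted as mouse neural crest cells (NCCs), in which 44 of 46983 listed genes carried a protein-coding collagen chain name (Col, a type number, a and a chain number) in the GENCODE mouse release M21. Of these, 11 encode fibrillar chains, 6 basement membrane chains, 9 chains of the fibril-associated collagens with interrupted helices (FACIT) and 18 chains of other types. The cells were GFP+ cells sorted from E11.25 embryos, with 3 samples in each of the control and BAF155/170-deficient groups. Controls carried Wnt1 Cre/+, BAF155 flox/+, BAF170 flox/+ and Rosa26 mTmG/+, so their recombined cells had lost 1 copy of each subunit gene; deficient embryos had the same Wnt1 Cre/+ and Rosa26 mTmG/+ alleles but were flox/flox at both BAF155 and BAF170. BAF155 and BAF170 are core subunits of the BAF chromatin remodeling complex, encoded by Smarcc1 and Smarcc2. Cre and the reporter, which turns on GFP in recombined cells, were thus shared by both groups. Wnt1 Cre is active in the dorsal neural tube as well as in the neural crest, so GFP does not mark NCCs alone. The comparison asked how the transcripts of the cells differ when both subunits are deleted.

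Collagens are secreted or membrane proteins whose chains wind around each other into a stiff helix. Fibrillar collagens assemble into the load-bearing fibrils of mesenchyme, skin, bone and cartilage, the type IV chains form the sheet-like network of basement membranes, and FACIT collagens decorate the surface of fibrils. Cranial NCCs give rise to the mesenchyme, cartilage and bone of the face, which are rich in fibrillar collagen.

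Counts per library ran from 8191219 to 11661941 in the controls and from 12633319 to 19808620 in the deficient samples, so every deficient library was deeper. Smarcc1 was lower in every deficient library (44.1 ± 10.1 CPM, counts scaled to library size, against 26.7 ± 2.48, SD, n = 3 per group) with a log2 fold change of −0.71 (SE 0.16, edgeR quasi-likelihood test with Benjamini-Hochberg adjustment over all genes, adjusted p = 0.0676). Smarcc2 stood at 91.5 ± 1.52 against 85.0 ± 2.38 CPM, a log2 fold change of −0.11 that missed the threshold (edgeR adjusted p = 0.251), and counts over whole genes do not separate the deleted exons. The 12 macrophage markers summed to between 12105 and 14037 CPM in the controls and between 14169 and 15453 CPM in the deficient libraries, led by Ctss and Lyz2 (control means 3592 and 3244 CPM); all 12 had a higher deficient mean, with a median log2 fold change of 0.19. The 12 mesenchymal crest markers, from a part of the neural crest, summed to between 64.3 and 106 CPM in the controls and between 30.9 and 53.2 CPM in the deficient libraries, with none at 0 in any library. All 11 of these that were tested were lower in the deficient group (6 called, median log2 fold change −1.13), and their part in the collagen values below was not tested. Other marker sums with a lower deficient mean included the erythroid (33.2 against 13.3 CPM), sensory (37.1 against 19.3) and autonomic lists (9.68 against 5.49). Further such sums were the glial crest (36.7 against 21.6) and neural tube lists (37.7 against 26.8). Smooth muscle markers stood at 18.8 against 17.4 CPM. All of these overlapped between the groups except the erythroid sum, whose controls stood at 23.4, 59.8 and 16.4 CPM. Of its 6 tested genes 4 were lower and 2 higher, Hba-a1 (log2 fold change 0.02) and Hba-a2 (0.48). The macrophage sum was far above the sum of each crest list in every library. CPM values here are thus levels in the whole sorted sample, not in neural crest cells alone. In bulk samples such as these, fewer cells of a type and less RNA per cell cannot be told apart.

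Genes were called lower or higher by the thresholds of the study's methods, which are an adjusted p no larger than 0.1, a log2 fold change no smaller than 0.58 in size and a mean level of 2 CPM or more. The study applied them with limma, and here the p-values come from edgeR. Of the 44 collagen genes, 34 passed the filter on low counts and 25 had a mean of at least 2 CPM. 8 members were called lower in the deficient group: the fibrillar Col1a1, Col1a2, Col3a1 and Col5a1, and Col6a3, Col23a1, Col25a1 and Col26a1 of the other types. The background over all 13961 genes tested was 4.88% called lower, or 5.78% of the 11787 genes with a mean of at least 2 CPM. No member was called higher with edgeR, DESeq2 or limma-voom, and none was higher at an unadjusted p under 0.05 in any of these (background 0.0573% called higher). Without the fold and level thresholds, 16 members passed the adjusted p, all lower, where 7.75% of all genes passed and were lower. Col9a2, Col24a1 and Col8a2, among the 16, passed the filter on low counts through the controls alone, which fixes their direction. Of the 26 members past the filter's minimum in every library, 10 passed the adjusted p. The share among all genes past that minimum in every library is not given here. All 8 calls ended when libraries were scaled to markers: with edgeR the embryonic lists gave 0 members lower and 1 higher, where 0.451% and 49.7% of all genes were called, and the mesenchymal crest markers gave 0 lower and 12 higher, where 0.115% and 75.6% were.

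The calls depended on single libraries, as did those over all genes. With edgeR, 0 members were called without control replicate 1 or without deficient replicate 3. Of all 13961 genes, 0 and 8 were then called lower. At an unadjusted p under 0.05, 22 and 17 of the 34 members were then lower and none was higher. In either direction, 2479 and 2132 of the 13961 genes then had such a p. Without control replicate 2 a single member, Col3a1, was called, and without deficient replicate 2 there were 3, of which Col5a1 and Col25a1 were among the 8; over all genes 0.437% and 1.3% were then called lower. Without control replicate 3 the count was 14 with all of the 8 kept, and without deficient replicate 1 it was 8 with 6 kept, Col1a1 and Col3a1 being lost, with 8.75% and 7.32% of all genes called lower. Control replicate 2 was the highest control library in 29 of the 34 tested members and in 5474 of all 13961 genes tested. A correction for exonic length left 7 called, without Col1a2 and Col6a3 and with Col2a1, where 4.3% of all genes were called lower.

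Among the 34 tested members, 32 had a lower mean on the deficient side and 2 a higher one. Over all 13961 genes tested, 7305 were lower and 6656 higher. The collagen median log2 fold change was −0.72 against −0.02 for all genes. This collagen median turned to 0.15 when libraries were scaled to the embryonic marker lists and to 0.57 when scaled to the mesenchymal crest markers. Those scalings moved the median of all genes to 0.82 and 1.24. Set against the median of all genes, the collagen median was −0.70 with the standard scaling. This difference was −0.67 with the embryonic lists and −0.68 with the mesenchymal crest markers. A change of scaling moves all genes of a library together, so the difference stays nearly the same by construction. Its likeness across scalings is therefore no test of which scaling holds. Every deficient library lay below every control library in 20 of the 34 members, where 16.4% of all genes tested did so. A member could pass the filter on low counts through the controls alone, where it is high, and then had to be lower in the deficient group. This was so for Col9a2, Col24a1 and Col8a2, and Col9a1 was past the filter's minimum in 1 deficient library. In the 26 members past that minimum in every library, 25 were lower with the standard scaling, 7 were called and the median log2 fold change was −0.60. Values for all genes past that minimum in every library are not given, so these have no matching background. The plot of fold changes by class shows where each member lay.

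**Figure D1:**
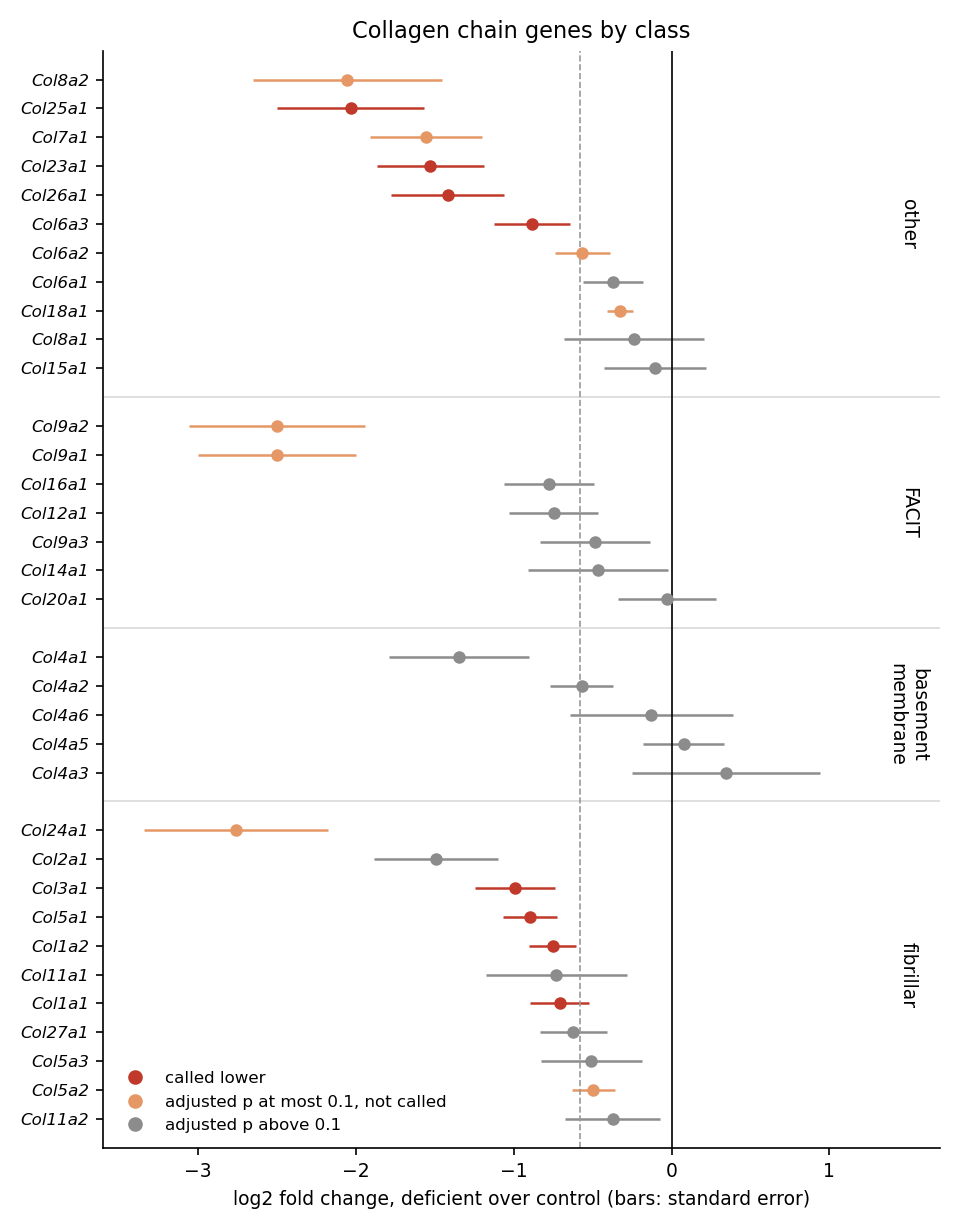
Log2 fold change of the 34 tested collagen genes, deficient over control, with standard errors, grouped by class; the solid line marks no difference and the dashed line the fold threshold of the calls. With the standard scaling 32 of 34 points lie left of the solid line (median −0.72; 0.15 when scaled to the embryonic marker lists), with Col4a5 and Col4a3 on the right.

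To show how the regulatory sequence of the called genes differs, the 250 bases before the RefSeq start site are given for 4 of the 8, a pair of fibrillar and a pair of transmembrane chains with no annotated exon in the window (GRCm38.p6, 5′ to 3′ on the strand of the gene). Capitals mark, on either strand, the TATA box motif TATAAA, the motif of the CCAAT box, the GC box core GGGCGG, and the core of the Tead binding site CATTCC. The GC box core reads CCGCCC where it lies on the other strand.
Col3a1, chr1:45311288-45311537, plus strand: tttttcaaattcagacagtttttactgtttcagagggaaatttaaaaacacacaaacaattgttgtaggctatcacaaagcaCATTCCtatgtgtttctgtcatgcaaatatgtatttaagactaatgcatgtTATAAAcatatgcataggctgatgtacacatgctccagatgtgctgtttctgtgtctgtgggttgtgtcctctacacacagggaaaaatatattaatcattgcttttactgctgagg
Col5a1, chr2:27886175-27886424, plus strand: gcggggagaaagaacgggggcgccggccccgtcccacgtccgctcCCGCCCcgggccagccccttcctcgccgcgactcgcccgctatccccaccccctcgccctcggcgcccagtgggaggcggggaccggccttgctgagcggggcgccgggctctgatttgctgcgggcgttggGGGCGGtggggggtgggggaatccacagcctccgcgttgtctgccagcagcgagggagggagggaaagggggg
Col23a1, chr11:51289670-51289919, plus strand: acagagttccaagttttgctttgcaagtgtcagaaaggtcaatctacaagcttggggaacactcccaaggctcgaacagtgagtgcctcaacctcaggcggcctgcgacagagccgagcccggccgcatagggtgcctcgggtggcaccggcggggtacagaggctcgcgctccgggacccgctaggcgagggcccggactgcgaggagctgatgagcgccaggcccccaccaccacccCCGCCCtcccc
Col25a1, chr3:130180595-130180844, plus strand: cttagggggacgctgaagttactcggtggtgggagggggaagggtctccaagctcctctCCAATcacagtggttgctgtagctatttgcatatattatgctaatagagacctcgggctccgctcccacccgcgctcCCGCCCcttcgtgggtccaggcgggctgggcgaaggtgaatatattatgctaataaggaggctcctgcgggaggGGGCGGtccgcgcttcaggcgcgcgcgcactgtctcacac

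The window of Col3a1 was 35.2% G and C and held TATAAA and CATTCC once each, without GGGCGG. The window of Col5a1 was 76.4% G and C and held GGGCGG at 2 places with none of the other motifs. The window of Col25a1 lies inside the span that GENCODE gives the gene, whose first annotated start is farther upstream. RefSeq windows were found for 35 of the 44 members (38 windows) and for 6 of the 8 called ones. GGGCGG occurred in 57.9% of the collagen windows and in 32.7% of all 32851 windows. Most collagen windows were above the median of all windows in G and C (52.4%). GGGCGG is made of G and C alone, and these shares were not matched for that content. TATAAA occurred in 13.2% against 12.4%, CCAAT in 34.2% against 33.8%, and CATTCC in 10.5% against 12.6%. A match describes the letters only.

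Col1a2 and Col1a1, the chains of type I collagen, and Col3a1, the single chain of type III, had the highest control levels per kilobase. Per kilobase of the longest coding transcript the control levels were 16.8 CPM for Col1a2, 11.9 for Col3a1 and 10.7 for Col1a1, and per kilobase of all annotated exons they were 7.24, 6.74 and 9.66, so the order of these 3 rests on the length used. Col2a1, the chain of cartilage collagen, came next among the fibrillar chains by both lengths (7.38 and 4.08 CPM per kilobase).

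Col1a2 (chr6:4504814-4541544) was read at 83.9, 112 and 74.4 CPM in control replicates 1, 2 and 3 and at 58.2, 52.3 and 49.2 CPM in the deficient replicates. The groups did not overlap, and control replicate 2 was the highest. Its log2 fold change was −0.75 (SE 0.15, edgeR adjusted p = 0.0660). Col1a1 (chr11:94936224-94953042) was read at 54.3, 84.1 and 51.8 CPM in the controls and at 38.8, 36.8 and 39.8 CPM in the deficient libraries. The deficient libraries lay within 4 CPM of each other and below every control, with a log2 fold change of −0.71 (SE 0.19, edgeR adjusted p = 0.0915). Because the deficient libraries were deeper, the raw counts of Col1a1 overlapped (511 to 631 in the controls, 496 to 839 in the deficient libraries). Col3a1 (chr1:45311538-45349706) was read at 53.2, 91.1 and 54.3 CPM in the controls and at 39.3, 29.9 and 30.3 CPM in the deficient libraries. Here too the groups were apart, with a log2 fold change of −0.99 (SE 0.26, edgeR adjusted p = 0.0965).

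Type V collagen starts and limits the growth of type I fibrils. Col5a1 (chr2:27886425-28039514) was read at 19.6, 26.1 and 16.7 CPM in the controls and at 13.001, 10.4 and 9.97 CPM in the deficient libraries, which did not overlap. With a log2 fold change of −0.90 (SE 0.17) it was the only called member with an edgeR adjusted p under 0.05 (0.0483). Its partner Col5a2 was read at 20.4, 27.2 and 18.96 CPM in the controls and at 15.7, 16.3 and 14.9 CPM in the deficient libraries. The groups were apart and the adjusted p passed (0.0773 with edgeR), but the log2 fold change of −0.49 (SE 0.13) was under the threshold for a call. Col5a3, the third type V chain, stood at 3.72, 4.55 and 2.95 CPM in the controls and at 1.80, 3.73 and 2.23 CPM in the deficient libraries. These overlapped, with a log2 fold change of −0.51 (SE 0.32, edgeR adjusted p = 0.327).

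Of the other fibrillar chains, Col24a1 had the largest fall of all 34 members, from 1.17, 1.87 and 1.23 CPM in the controls to 0.0783, 0.367 and 0.142 CPM in the deficient ones. Its log2 fold change was −2.76 (SE 0.58, edgeR adjusted p = 0.0534) on between 1 and 15 counts per library. It passed the filter through the controls alone, which fixes the direction, and it was not called because its mean was under 2 CPM. Col2a1, singled out after its values were seen, was read at 35.2, 55.1 and 22.7 CPM in the controls and at 17.5, 11.6 and 10.9 CPM in the deficient libraries. The groups did not overlap and the log2 fold change was −1.49 (SE 0.40), but the edgeR adjusted p of 0.103 missed the threshold, while DESeq2 and limma-voom called it. The chains Col11a1, Col11a2 and Col27a1 had log2 fold changes between −0.73 and −0.37 and none was called. In all, 11 of 11 fibrillar chains were tested, 4 were called lower, and 6 passed the adjusted p. All 11 had a lower deficient mean with the standard scaling and 4 of them also with the embryonic marker scaling.

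**Figure D2:**
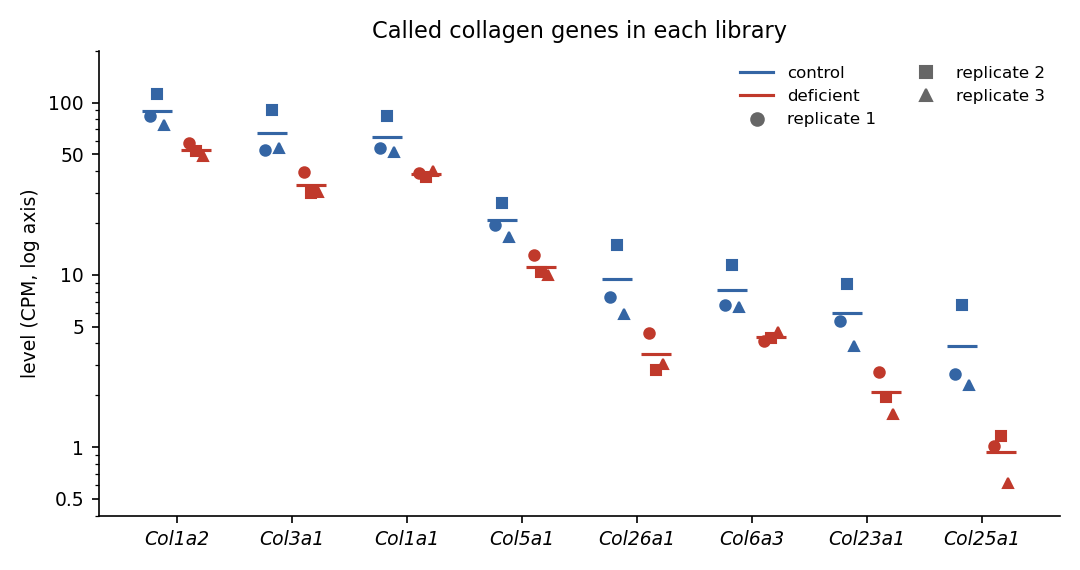
Levels of the 8 called collagen genes in each library (CPM, log axis), ordered by control mean; symbols mark replicates and short lines the group means. In each gene every deficient library lies below every control library, and control replicate 2 (square) is the highest, as for Col1a2 at 112 CPM.

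Of the basement membrane chains, 5 of 6 were tested and 0 were called with edgeR, while DESeq2 and limma-voom each called 1. With edgeR 2 had an unadjusted p under 0.05, as did 3813 of all 13961 genes in either direction. Col4a1 and Col4a2, the partners of the common type IV molecule, had the highest control levels per kilobase of the class. Col4a1 was read at 21.6, 48.3 and 18.1 CPM in the controls and at 14.3, 9.84 and 10.2 CPM in the deficient libraries. The groups were apart, but control replicate 2 was more than double the other controls, and the log2 fold change of −1.35 (SE 0.45) had an edgeR adjusted p of 0.139. Without that library the log2 fold change of Col4a1 was the smallest of the leave-one-out values (−0.81), and Col4a1 was the gene that DESeq2 and limma-voom called.

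Col4a2 was read at 25.1, 35.6 and 20.2 CPM in the controls and at 20.4, 16.4 and 17.3 CPM in the deficient libraries. The groups overlapped by a small margin, with a log2 fold change of −0.57 (SE 0.20, edgeR adjusted p = 0.119). Col4a3, a chain of the kidney filtration barrier, had the largest rise in mean of all members, a log2 fold change of 0.35 (SE 0.59, edgeR adjusted p = 0.748) on 3 to 14 counts per library. Col4a5 had a log2 fold change of 0.08 (SE 0.25) and Col4a6 of −0.13 (SE 0.52), and neither passed the test. The 7 endothelial markers, from cells that also make basement membrane, summed to 182 ± 11.6 CPM in the controls and 204 ± 7.19 CPM in the deficient libraries (SD, n = 3), most of it from Kdr. Their defining genes Pecam1 and Cdh5 had control means of 5.49 and 1.62 CPM, and their part in the type IV values was not tested.

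Of the FACIT chains, 7 of 9 were tested, and all 7 had a lower deficient mean with the standard scaling, 2 of them also with the embryonic marker scaling. With edgeR 0 were called and 2 passed the adjusted p, while DESeq2 called 1, Col12a1, and limma-voom 0. With edgeR 4 had an unadjusted p under 0.05, as did 3813 of all 13961 genes in either direction. Col12a1, a FACIT chain of tendon and other dense tissue, was read at 7.55, 13.6 and 11.7 CPM in the controls and at 7.99, 7.52 and 4.23 CPM in the deficient libraries. The groups overlapped, with a log2 fold change of −0.75 (SE 0.28, edgeR adjusted p = 0.133). Col9a1, a chain of the type IX collagen that coats cartilage fibrils, was read at 2.98, 4.55 and 1.72 CPM in the controls and at 0.470, 0.244 and 0.807 CPM in the deficient libraries. It fell by 2.50 on the log2 scale (SE 0.50, edgeR adjusted p = 0.0490) with no overlap of the groups, and only its mean level kept it from a call. Col9a1 and Col9a2 passed the filter through their controls, where they are high. Col9a2, its partner, also fell by 2.50 (SE 0.56, edgeR adjusted p = 0.0583), whereas the third chain, Col9a3, had a log2 fold change of −0.49 (SE 0.35, edgeR adjusted p = 0.392). Of the cartilage markers, Sox9 was called lower (log2 fold change −1.75), Matn1 and Snorc were at 0 in every library and Acan had at most 2 counts in a library; the part of cartilage cells in the type II and type IX values was not tested. The list summed to 9.59 ± 3.81 CPM in the controls and 4.06 ± 1.17 CPM in the deficient libraries (SD, n = 3), and Matn4, Cnmd and Hapln1 were its other members.

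Among the other types, 11 of 18 were tested, and all 11 had a lower deficient mean with the standard scaling, 5 of them also with the embryonic marker scaling. Of these, 4 were called lower and 8 passed the adjusted p. Col18a1, a basement membrane proteoglycan chain that holds endostatin, was the most abundant per kilobase by both lengths. It was read at 37.1, 38.5 and 33.8 CPM in the controls and at 29.4, 27.5 and 30.1 CPM in the deficient libraries. The groups were apart and each was tight, and the log2 fold change of −0.33 (SE 0.08, edgeR adjusted p = 0.0715) passed the test of p but was under the fold threshold.

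The type VI chains build the beaded filaments around cells. Col6a3 (chr1:90765923-90843971) was read at 6.70, 11.4 and 6.48 CPM in the controls and at 4.15, 4.28 and 4.65 CPM in the deficient libraries. It was called, without overlap, at a log2 fold change of −0.89 (SE 0.24, edgeR adjusted p = 0.0773). Col6a2 was read at 9.04, 10.03 and 9.11 CPM in the controls and at 5.80, 7.45 and 5.74 CPM in the deficient libraries, also without overlap. Its log2 fold change of −0.57 (SE 0.17, edgeR adjusted p = 0.0906) lay just under the fold threshold. Col6a1 was read at 6.59, 7.89 and 8.70 CPM in the controls and at 5.95, 5.13 and 6.84 CPM in the deficient libraries. The groups of Col6a1 overlapped, with a log2 fold change of −0.37 (SE 0.19, edgeR adjusted p = 0.236).

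Col23a1 and Col25a1 encode transmembrane collagens, the second of which is known from the innervation of muscle by motor neurons. Col25a1 (chr3:130131501-130599877) was read at 2.66, 6.69 and 2.30 CPM in the controls and at 1.02, 1.16 and 0.617 CPM in the deficient libraries. It had the largest fall among the called members, −2.03 on the log2 scale (SE 0.47, edgeR adjusted p = 0.0625), with control replicate 2 more than double the other controls. Col23a1 (chr11:51289920-51583918) was read at 5.42, 8.83 and 3.86 CPM in the controls and at 2.74, 1.96 and 1.57 CPM in the deficient libraries. It fell by 1.53 on the log2 scale (SE 0.34, edgeR adjusted p = 0.0583), and its groups did not overlap. Col26a1 (chr5:136741759-136883209), a short collagen first found in gonads, was read at 7.44, 14.8 and 5.91 CPM in the controls and at 4.62, 2.81 and 3.04 CPM in the deficient ones. Its log2 fold change was −1.42 (SE 0.36, edgeR adjusted p = 0.0773), again without overlap.

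Col7a1, the chain of the anchoring fibrils under epithelia, and Col8a2, a short-chain collagen, passed the adjusted p with log2 fold changes of −1.55 and −2.05, but their means were under 2 CPM. Col8a2 passed the filter through the controls alone, which fixes its direction. Of the epithelial markers none was tested, and their sum was 2.06 ± 0.77 CPM in the controls and 0.986 ± 0.12 CPM in the deficient libraries (SD, n = 3). The remaining tested chains of this class, Col8a1 and Col15a1, had log2 fold changes of −0.24 and −0.10. The 10 members that did not pass the filter were Col4a4 of the basement membrane class, Col19a1 and Col22a1 of the FACIT class, and Col6a4, Col6a5, Col6a6, Col10a1, Col13a1, Col17a1 and Col28a1 of the other types. They had 0 to 19 counts per library, summed to between 36 and 54 counts per library, and were not tested with the main settings. The deficient libraries of Col17a1, Col22a1 and Col28a1 all lay below the controls in CPM, on 0 to 10 counts against 3 to 19, and the groups of the other 7 overlapped.

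The chains of a class were also summed, as CPM over all members of the class including those not tested. With the standard scaling the sum over all 44 genes was 517 ± 139 CPM in the controls and 298 ± 30.3 CPM in the deficient libraries (SD, n = 3), a log2 ratio of the means of −0.80, which turned to 0.082 when libraries were scaled to the embryonic marker lists and to 0.50 when scaled to the mesenchymal crest markers. The controls lay at 462, 675 and 413 CPM and the deficient libraries at 331, 290 and 272 CPM. They did not overlap, and the exact permutation test gave p = 0.1, two-sided, which is the smallest that 3 against 3 samples allow. Collagen counts made up between 0.0432% and 0.0616% of the control libraries and between 0.0286% and 0.0335% of the deficient ones.

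By class, with the standard scaling, the fibrillar sum was 330.4 ± 89.8 against 184 ± 19.5 CPM, the basement membrane sum 66.8 ± 23.3 against 40.4 ± 7.48 CPM, the FACIT sum 27.4 ± 7.42 against 15.2 ± 2.68 CPM and the sum of the other types 92.0 ± 18.7 against 57.7 ± 1.18 CPM (SD, n = 3). The log2 ratios of the means were −0.84, −0.73, −0.85 and −0.67, and with the embryonic marker scaling they were 0.035, 0.15, −0.0053 and 0.21. The exact permutation p, two-sided, was 0.1 for each class except basement membrane, whose groups overlapped (p = 0.2). The ratio of the collagen sum to the sum of the mesenchymal crest markers was 6.04 ± 0.61 in the controls and 7.80 ± 1.38 in the deficient libraries (SD, n = 3). These ratios overlapped (exact permutation p = 0.3, two-sided; Benjamini-Hochberg adjusted 0.3 over 6 sums). For the basement membrane sum the ratio was 0.770 ± 0.10 against 1.04 ± 0.12, higher in 3 of 3 deficient libraries than in any control (exact permutation p = 0.1, adjusted 0.3).

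**Figure D3:**
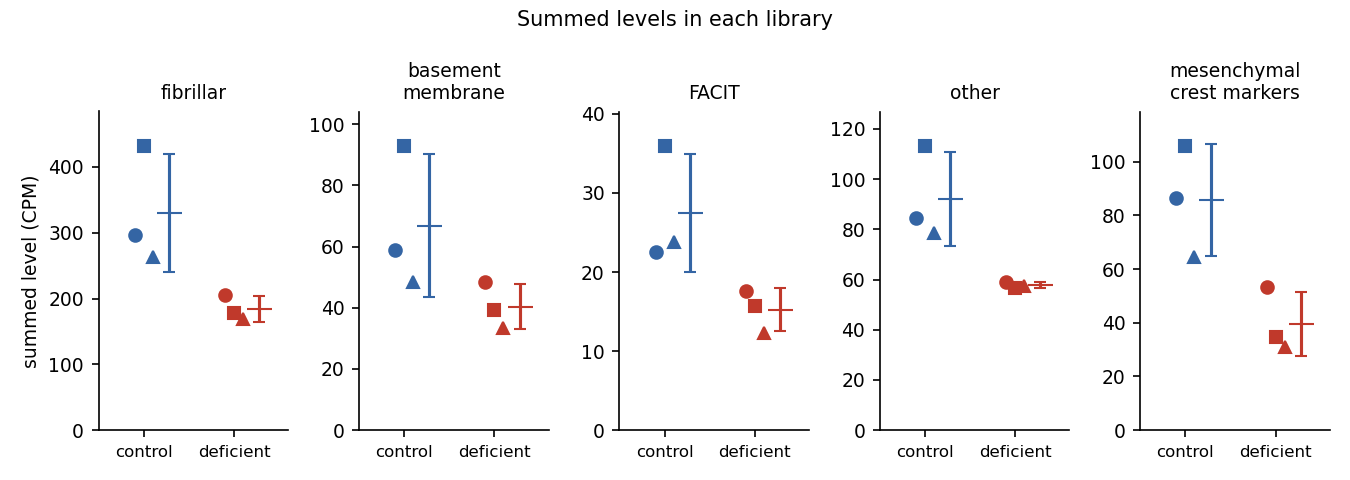
Summed levels (CPM, linear axes from 0, a scale for each panel) of the 4 collagen classes and of the mesenchymal crest markers in each library, with the group mean and SD beside the points. With the standard scaling the deficient libraries lie below the controls except for basement membrane, where they overlap; scaled to the embryonic marker lists, 3 of the 4 class ratios lie above 0 (0.035 to 0.21) and FACIT at −0.0053.

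Chains that share a molecule, and some other pairs of genes, were compared as ratios of their counts within a library, which do not depend on the scaling of libraries. The other pairs were Col3a1 over Col1a1, Col5a2 over Col3a1, Serpinh1 over Col1a1 and Col2a1 over Sox9. In all, 13 ratios were tested, and none passed after Benjamini-Hochberg adjustment (lowest adjusted exact permutation p = 0.26, where the smallest unadjusted p was 0.1). Col1a1 over Col1a2 was 0.648, 0.754 and 0.696 in the controls and 0.668, 0.703 and 0.809 in the deficient libraries. These overlapped, with a difference of 0.05 on the log2 scale (exact permutation p = 0.6, adjusted 0.65). Col5a2 over Col5a1 was 1.04, 1.04 and 1.14 in the controls and 1.21, 1.56 and 1.495 in the deficient libraries. This ratio was higher in 3 of 3 deficient libraries than in any control, by 0.40 on the log2 scale (exact permutation p = 0.1, adjusted 0.26). Col4a2 over Col4a1 was 1.16, 0.737 and 1.11 in the controls and 1.43, 1.66 and 1.701 in the deficient libraries. It too was higher in 3 of 3, by 0.69 on the log2 scale, with the same p values.

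The largest shifts among the 13 ratios were in type IX collagen. Col9a3 over Col9a1 was 0.643, 0.441 and 1 in the controls and 2.83, 4 and 2.06 in the deficient libraries, and Col9a3 over Col9a2 was 1.32 ± 0.067 against 8.48 ± 7.99 (SD, n = 3). Neither pair overlapped (each exact permutation p = 0.1, adjusted 0.26), on 2 to 35 counts per chain and library. Col9a1 and Col9a2 passed the filter on low counts through their controls, where they are high. This selection favours higher ratios over these chains in the deficient group, so the size of these shifts cannot be read as a result. Col3a1 over Col1a1 was 1.04 ± 0.053 against 0.862 ± 0.13 and overlapped (exact permutation p = 0.2, adjusted 0.371). Col2a1 over Sox9, the transcription factor that drives Col2a1 in cartilage, was 5.31 ± 0.050 in the controls and 6.62 ± 1.68 in the deficient libraries, and overlapped (exact permutation p = 0.4, adjusted 0.65).

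**Figure D4:**
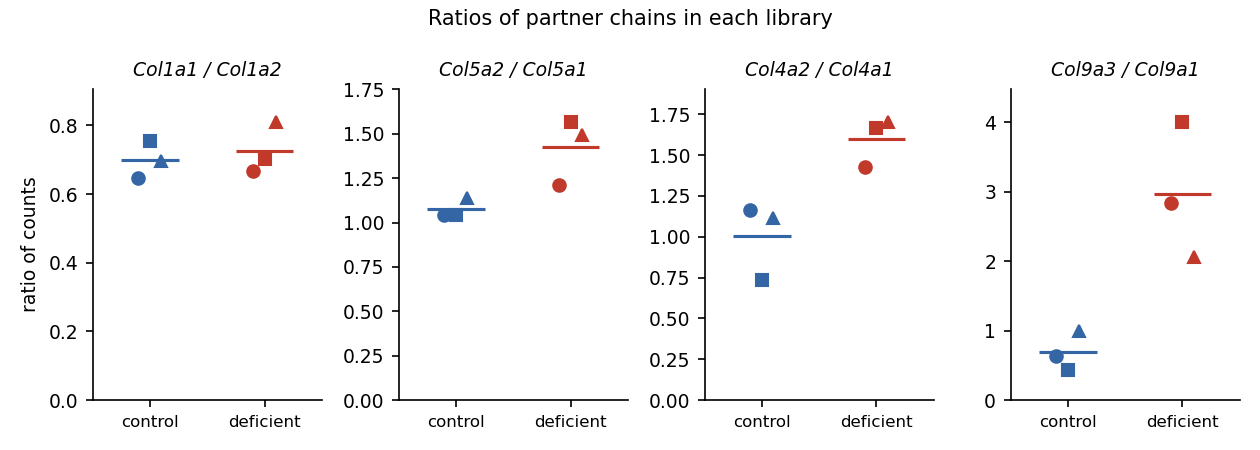
Ratios of the counts of partner chains in each library (linear axes from 0, a scale for each panel; lines mark group means, symbols replicates). Col1a1 over Col1a2 overlaps between the groups, while Col5a2 over Col5a1, Col4a2 over Col4a1 and Col9a3 over Col9a1 lie higher in the 3 deficient libraries, with no adjusted p below 0.26. Col9a1 passed the filter on low counts through its controls, which favours a higher deficient ratio.

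Several collagen genes lie side by side in the genome. Col3a1 and Col5a2 stand 24614 bases apart on chromosome 1 on opposite strands, and both passed the adjusted p, with log2 fold changes of −0.99 and −0.49. Their ratio, Col5a2 over Col3a1, was 0.344 ± 0.043 in the controls and 0.479 ± 0.073 in the deficient libraries and did not overlap (exact permutation p = 0.1, adjusted 0.26). Col6a1 and Col6a2, on chromosome 10 and on the same strand, are 85161 bases apart, with log2 fold changes of −0.37 and −0.57. Col4a5 and Col4a6 on the X chromosome lie 1308 bases apart on opposite strands with values of 0.08 and −0.13. Col4a1 and Col4a2 share 22 bases on opposite strands, Col18a1 shares 8825 bases with Slc19a1 and Col9a3 shares 234 bases with Tcfl5; the strand setting of the counting was not given in the sources used here, so reads there could have been assigned to either gene or left out.

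The other genes of collagen biology, 46 listed and 40 tested, did not follow the collagen chains as a list with the standard scaling: 24 had a lower deficient mean and 16 a higher one, the median log2 fold change was −0.08, 3 were called lower and 0 higher, while scaling to the embryonic marker lists turned this to 1 called lower and 19 higher. Over all 13961 genes, 7305 were lower and 6656 higher with the standard scaling. The share called was 4.88% lower with the standard scaling and 49.7% higher with the embryonic marker scaling. With edgeR, 6 were lower and 5 higher at an unadjusted p under 0.05, where 3813 of all 13961 genes passed in either direction. The list was thus near the share over all genes. DESeq2 and limma-voom also called 0 pathway genes higher. The 3 called genes were Serpinh1, Bmp1 and Ddr2. Serpinh1, the collagen chaperone HSP47 of the endoplasmic reticulum, had a log2 fold change of −0.79 (SE 0.20, edgeR adjusted p = 0.0829) from 37.8 to 21.7 CPM. Its ratio to Col1a1 was 0.596 ± 0.0079 in the controls and 0.566 ± 0.077 in the deficient libraries and overlapped (exact permutation p = 0.7, adjusted 0.7).

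Bmp1, the protease that removes the C-terminal propeptide of procollagens, fell from 12.5 to 6.56 CPM with a log2 fold change of −0.93 (SE 0.17, edgeR adjusted p = 0.0455). Ddr2, a receptor tyrosine kinase for fibrillar collagen, fell from 10.2 to 2.46 CPM with a log2 fold change of −2.05 (SE 0.26, edgeR adjusted p = 0.0223). Ddr2 was called with 5 of the 6 libraries left out in turn and under both marker scalings. Without control replicate 1 none of the 3 was called. At an unadjusted p under 0.05, 4 of the 40 were then lower and 1 higher. Over all 13961 genes, 2479 then had such a p in either direction. Bmp1 was lost also without control replicate 2 and without deficient replicate 3, and Serpinh1 was kept only without control replicate 3.

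The gene with the highest control mean in each group of this list was not called unless named above. P4hb, a subunit of prolyl 4-hydroxylase that also acts as a general protein disulfide isomerase, was read at 183 against 191 CPM (log2 fold change 0.06, SE 0.06). Sec13, a coat protein of the vesicles that leave the endoplasmic reticulum, was at 56.4 against 59.95 CPM (0.09, SE 0.07), and the crosslinking enzyme Lox was at 14.3 against 14.7 CPM (0.03, SE 0.14). Itgb1, the beta chain of the collagen-binding integrins and of many others, was at 372 against 413 CPM (0.15, SE 0.06). Bmp1 led the propeptide processing group. P4hb and Itgb1 serve many proteins besides collagen.

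**Figure D5:**
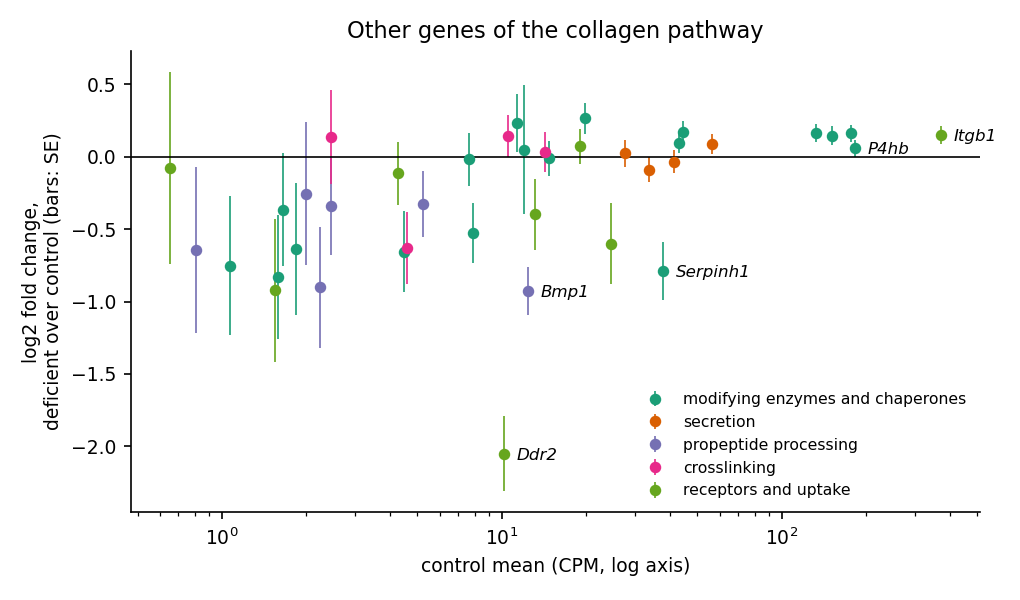
Log2 fold change of the 40 tested collagen pathway genes, deficient over control, with standard errors, against the control mean (CPM, log axis); colours mark the 5 groups. With the standard scaling Serpinh1, Bmp1 and Ddr2 are called lower (−0.79, −0.93 and −2.05), and the genes above 100 CPM lie between 0.06 and 0.16; scaled to the embryonic marker lists, 19 of the 40 are called higher and Ddr2 alone lower.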

How the data were processed

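RNA of GFP+ cells sorted as NCCs was read as strand-specific poly(A) libraries, 3 control and 3 BAF155/170-deficient. Adapters were trimmed by the authors and paired-end reads aligned to GRCm38 with STAR then counted with featureCounts; the annotation release, strand setting and treatment of reads with several matches are not given in the sources used here. The authors deposited whole-number counts per gene, without normalization, and whether samples came from separate litters is not given, so p-values measure the spread between these samples. Identifiers were matched to GENCODE M21 without their version (46488 of 46983 named; the rest held at most 0.0706% of a library). Counts were analysed with edgeR 4.0.16 in R 4.3.3 (filterByExpr with a minimum count of 10, TMM, robust quasi-likelihood fit without a block), with Benjamini-Hochberg adjustment over the 13961 genes tested, and the fit was tested on simulated data. CPM are on TMM library sizes, with a common biological coefficient of variation of 12.8%. Standard errors come from the F statistic. Single values were compared by exact permutation. Alternatives used DESeq2 1.42.0, limma 3.58.1, other scalings, filters and thresholds, a length correction, a replicate block and each library left out. The sample numbers are not stated to pair embryos, so samples were not paired. Deviations of same-numbered samples correlated at 0.03, −0.03 and 0.29, the last being the highest of any control and deficient pair. The deposited column names number the deficient samples otherwise than their titles do. Named with values in every library were each called member, the 2 of each class highest per kilobase in controls, partner chains of called members, and the largest rise and fall; of the pathway list, called genes and the highest of each group. The collagen genes, lists, marker lists and rules were chosen with earlier results of these data known. Promoter windows are from RefSeq (GRCm38.p6).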

Additional observations from a re-analysis of the deposited data

How the results depend on the processing

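The 8 collagen genes called lower became 11 with DESeq2, 10 with limma-voom (all 8 kept in both), 13 with voom quality weights, 8 with library totals, 9 without the filter on low counts, 7 with a length correction (6 kept), 16 by adjusted p alone, 13 without the level threshold and 1 at an adjusted p of 0.05. Over all genes the share called lower was 4.88% with the main settings, 6.25% with DESeq2 and 5.94% with limma-voom. This share was 8.96% with quality weights, 4.95% with library totals, 3.02% without the filter and 4.3% with the length correction. By adjusted p alone it was 7.75%. Of 13961 genes, 870 were called lower without the level threshold and 94 at an adjusted p of 0.05. With edgeR, leaving out 1 library gave 0 to 14 of these and 0 to 5 pathway genes called lower (3 with all libraries; 5 with voom quality weights). The share of all genes called lower then ran from 0% to 8.75%. The replicate block called 12, 7 of them among the 8, where 8.19% of all genes were called lower. Same-numbered samples share only a number, and controls 1, 2 and 3 correlated best with deficient replicates 2, 1 and 3.

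Scaled to the embryonic marker lists, 0 members were called lower with edgeR and 1 higher (Col4a5). At an unadjusted p under 0.05, 5 members were lower and 1 higher, where 7226 of all 13961 genes passed in either direction. Of the pathway genes 1 was called lower and 19 higher, where 49.7% of all genes were called higher. Scaled to the mesenchymal crest markers, chosen after seeing the data, 0 members were called lower and 12 higher, and the median was 0.57. At an unadjusted p under 0.05, 3 members were lower and 12 higher, where 11125 of all 13961 genes passed in either direction. Of the pathway genes 1 was called lower and 26 higher, where 75.6% of all genes were called higher. The embryonic scaling turned the median to 0.15 and the log2 ratios of sums to 0.082 (all), 0.035 (fibrillar), 0.15 (basement membrane), −0.0053 (FACIT) and 0.21 (other), and the mesenchymal scaling to 0.50, 0.45, 0.57, 0.43 and 0.63. The sum of the other types without Col18a1 gave −0.95. These scalings rest on 32 and 11 genes by construction.

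Single genes that changed sign under the embryonic scaling were Col4a2 (0.31), Col4a6 (0.62), Col9a3 (0.38), Col12a1 (0.030), Col14a1 (0.37), Col16a1 (0.067), Col20a1 (0.84), Col1a1 (0.18), Col1a2 (0.12), Col5a2 (0.38), Col5a3 (0.40), Col11a1 (0.074), Col11a2 (0.40), Col27a1 (0.24), Col6a1 (0.46), Col6a2 (0.29), Col6a3 (0.020), Col8a1 (0.62), Col15a1 (0.74) and Col18a1 (0.53). The mesenchymal scaling changed the sign of these 20 and of Col3a1 (0.28) and Col5a1 (0.38). Col4a5 was −0.041 with limma-voom, −0.070 with quality weights and −0.090 to 0.33 without 1 library; Col4a6 was −0.51 to 0.32 and Col14a1 −0.83 to 0.10 without 1 library. Col20a1 was 0.054 with quality weights, 0.038 with library totals, 0.024 without the filter and −0.16 to 0.18 without 1 library. The cause of these changes was not tested.

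The 10 untested chains had at most 19 counts in a library, and 3 samples a group allow no exact p below 0.1.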
